A study of Mus musculus with 4 samples.

Results

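The refolding of the genome between PATZ1 KO embryonic stem cells (ESCs) and PATZ1 KO motor neurons (MNs) was measured by comparing contacts between these 2 libraries. The question was which refolding steps of differentiation still took place without PATZ1. A contact was counted between 2 bins of 8 kb, and a pair of bins entered when it was listed in both cell states on the 19 autosomes. This left 11900118 pairs, which were 58.6% of the 20312056 autosomal pairs listed in MNs and 53.6% of the 22191618 listed in ESCs. With chromosome X included, the lists held 21005697 and 23095428 pairs.

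Micro-C was performed in E14 mouse ESCs, a line grown in LIF and 2i, and in cervical MNs made from them through embryoid bodies that received 1 µM retinoic acid and 0.5 µM smoothened agonist on day 2. Each state was taken from WT and from PATZ1 KO cells, which gave 4 groups with 1 library, made from a pool of cells, in each. PATZ1 KO lines were made with CRISPR/Cas9 and picked as single clones, and which clone gave these libraries was not stated in the sources used here. With 1 library a side, the difference between states cannot be told apart from that between pools, culture days or libraries, so no test across libraries was possible and each interval below covers counting error only.

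In Micro-C, cross-linked chromatin is cut between nucleosomes by micrococcal nuclease and ligated, so that a contact records DNA that lay close in the nucleus. Cohesin extrudes loops of chromatin and is halted at CTCF sites, most often at pairs of motifs that point towards each other, which sets the boundaries of domains. PATZ1 is a zinc finger protein that is found with CTCF and cohesin at such boundaries. When ESCs become MNs, retinoic acid opens the anterior Hox genes while the posterior ones stay under Polycomb repression, so that a border forms inside each cluster.

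Joined pairs held 136480348 contacts in the PATZ1 KO ESC library and 101408915 in the PATZ1 KO MN library, against 147148070 in WT ESCs and 96192959 in WT MNs. Each library kept 88.4% to 89.2% of its autosomal contacts. The median pair held 3 contacts in both PATZ1 KO libraries, and 27.5% of the pairs rested on 1 contact in PATZ1 KO MNs. WT and PATZ1 KO share no library, yet they share the list of pairs, since a pair had to be seen in all 4 libraries. Chromosomes 6 and 8 were covered more deeply than the rest in every library, at 1.63 and 1.55 times the median contacts per Mb in PATZ1 KO ESCs and 1.65 and 1.56 times in PATZ1 KO MNs.

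Contacts at the targeted gene were counted in the bin at chr11:3288001-3296000 (mm10), which holds the start of Patz1 (chr11:3288874-3309083, plus strand). It held 290 contacts in WT ESCs against 178 in PATZ1 KO ESCs, and 179 in WT MNs against 109 in PATZ1 KO MNs. Relative to the median of the 20 bins around it, this was -0.25 against -0.83 and -0.55 against -1.06 on the log2 scale. Both PATZ1 KO libraries were lower than the WT library of their state. A contact count does not measure loss of the gene or its protein, and the cause of this difference was not tested. The contact lists hold no RNA, and the cell states were not set against marker expression here.

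Without PATZ1, MNs had a larger share of their contacts at 504 to 5000 kb than ESCs. The share of contacts that spanned 1000 to 2000 kb was 1.33% in PATZ1 KO ESCs and 1.995% in their MNs, a log2 ratio of 0.59 (95% interval 0.58 to 0.59), and the ratio in WT was 0.62. At 2000 to 5000 kb the log2 ratio was 0.67 in PATZ1 KO and 0.70 in WT, and at 504 to 1000 kb it was 0.30 and 0.34. The share at 104 to 200 kb, the scale of loops and small domains, was lower in MNs, at 18.2% in PATZ1 KO ESCs against 17.0% in PATZ1 KO MNs, a log2 ratio of -0.10 against -0.084 in WT. The nearest contacts, at 16 to 40 kb, differed by -0.017 in PATZ1 KO and -0.044 in WT. Over joined pairs, PATZ1 KO and WT had the same sign at each of these 5 distances. Every joined pair has at least 1 contact in each library, while the ESC libraries are deeper. This rule alone can raise the MN share among sparse far pairs in both genotypes, and its part in these ratios was not tested.

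When each state was read from its own list rather than from joined pairs, the log2 ratio in PATZ1 KO was larger, with 0.94 for distances of 1000 to 2000 kb and 1.41 for those of 2000 to 5000 kb. The sign turned at 16 to 40 kb (0.023), at 200 to 504 kb (-0.26, from 0.013) and beyond 10000 kb (-0.48, from 0.11), so no direction is given at those distances. At 16 to 40 kb WT had -0.016 when read in this way, opposite in sign to PATZ1 KO.

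**Figure D1:**
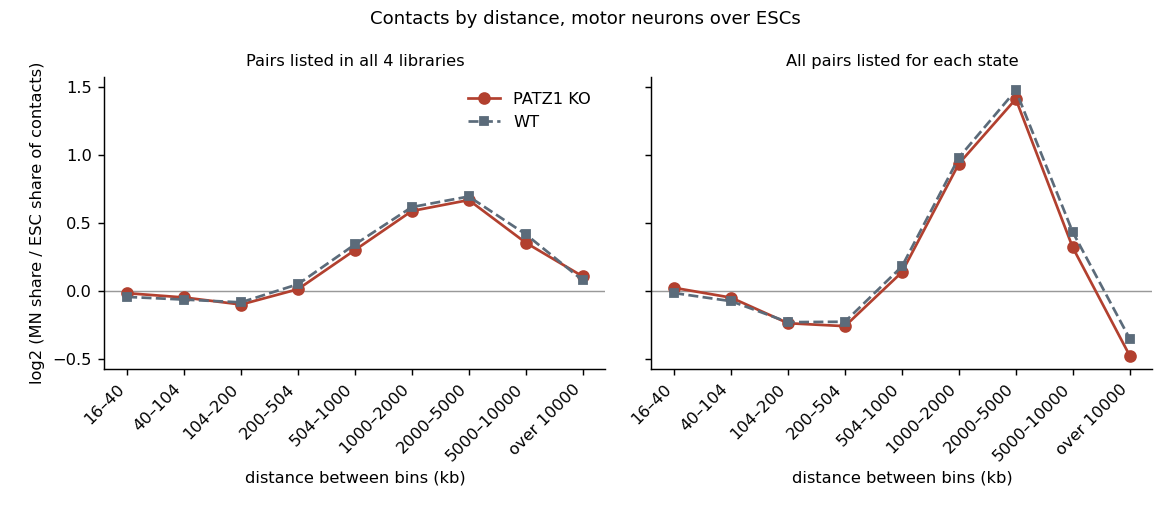
Change in the share of contacts between MNs and ESCs (log2, vertical axis) by the distance between bins (horizontal axis), for PATZ1 KO and WT over joined pairs. Both lines lie below 0 from 40 to 200 kb and above it from 504 to 5000 kb, with 0.67 in PATZ1 KO and 0.70 in WT at 2000 to 5000 kb.

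The genome was next cut into windows of 64 bins of 8 kb, and contacts inside each window at 16 kb or more were scaled to the totals at each distance, so that the decay above drops out. Of 4596 windows, 92 (2.00%) had a log2 ratio of PATZ1 KO MNs over PATZ1 KO ESCs above 0.32 and 150 (3.26%) had one below -0.32, and windows or genes past these limits are called higher or lower. Most windows differed little, with an SD of 0.17 over windows on the log2 scale. The 3 highest and 3 lowest windows held no gene of the lists described below.

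The highest window, chr15:35328001-35840000, lies in Vps13b, which encodes a lipid transfer protein of the Golgi. It held 5236 contacts in PATZ1 KO ESCs against 6286 in PATZ1 KO MNs, a log2 ratio of 0.68 (0.63 to 0.73), and 6901 and 5048 in WT, a ratio of 0.12. The window chr2:37376001-37888000 holds Rc3h2, Zbtb6, Zbtb26, Rabgap1, Strbp, Gpr21, Crb2 and Dennd1a, among which Crb2 is a polarity gene of the neural epithelium. Its log2 ratio was 0.54 in PATZ1 KO, from 7756 to 8411 contacts, and 0.23 in WT, from 10099 to 7947. The window chr4:150016001-150528000 holds Gpr157, Slc2a5, Slc2a7, Car6, Eno1, a glycolytic enzyme, and Rere, a cofactor of retinoic acid signalling. Its log2 ratio was 0.53 in PATZ1 KO, from 6080 to 6561 contacts, and 0.59 in WT, from 7586 to 7660. All 3 windows were higher in MNs in both genotypes.

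The lowest window, chr5:77312001-77824000, holds Polr2b, a large subunit of RNA polymerase II, and Igfbp7, a secreted binding protein of growth factors. It held 8793 contacts in PATZ1 KO ESCs against 4245 in PATZ1 KO MNs, a log2 ratio of -0.63 (-0.68 to -0.58), and 8168 and 4553 in WT, a ratio of -0.27. The window chr5:133632001-134144000 holds Castor2, of a family of arginine sensors. Its log2 ratio was -0.59 in PATZ1 KO, from 9531 to 4723 contacts, and -0.14 in WT, from 9465 to 5749. The window chr8:74752001-75264000 holds Isx, Hmgxb4, Tom1, Hmox1, which degrades heme, Mcm5, of the replicative helicase, and Rasd2. Its log2 ratio was -0.55 in PATZ1 KO, from 12691 to 6481 contacts, and -0.16 in WT, from 12803 to 7656. All 3 were lower in MNs in both genotypes. The named windows were chosen by their PATZ1 KO ratios, so a larger ratio there than in WT comes with the choice and is no result.

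The base composition of a window moved with the ratio, and it did so differently in the 2 genotypes. The rank correlation of the log2 ratio with GC content over the 4596 windows was -0.22 in PATZ1 KO and 0.90 in WT. Over 5 equal classes of windows from low to high GC content, the median log2 ratio was 0.11, 0.0018, -0.036, -0.027 and 0.0041 in PATZ1 KO, and -0.36, -0.17, -0.0032, 0.16 and 0.35 in WT. Whether the GC trend of WT comes from the cells or from the libraries was not tested.

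Values are therefore also given after a cubic fit on GC content was subtracted in each genotype. The Pearson correlation between PATZ1 KO and WT ratios over windows was 0.137 as measured and 0.770 after the fit, and 0.692 when the tenth of windows with the largest PATZ1 KO values was left out. After the fit, 95 windows were called higher and 111 lower in PATZ1 KO. The WT value had the same sign in all 95 and in all 111, with medians of 0.21 and -0.26. When WT chose the windows, PATZ1 KO had the same sign in 29 of 29 higher and 55 of 56 lower ones. The 3 highest windows named above had fitted values of 0.65, 0.57 and 0.55 in PATZ1 KO and 0.36, 0.23 and 0.31 in WT. The 3 lowest had -0.59, -0.56 and -0.52 in PATZ1 KO and -0.38, -0.36 and -0.39 in WT. The points share chromosomes, mappability and the list of pairs, and the correlations are descriptions.

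**Figure D2:**
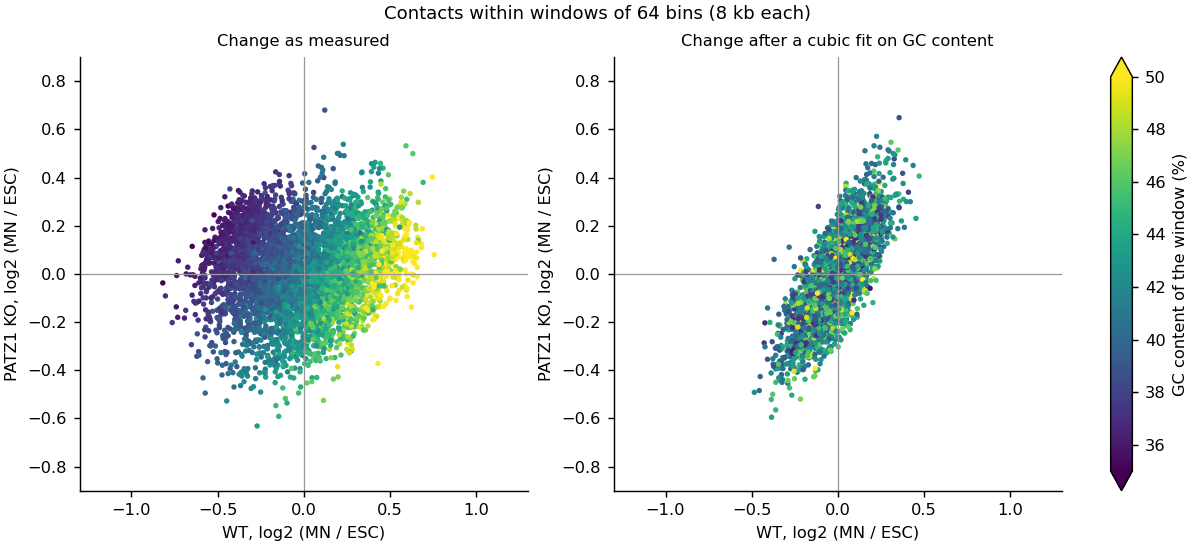
Log2 ratio of MN over ESC contacts in windows of 64 bins, WT on the horizontal and PATZ1 KO on the vertical axis, each point 1 window coloured by GC content, as measured (left) and after a cubic fit on GC content (right). The colours run along the WT axis on the left (Pearson correlation 0.137), and the points lie along a diagonal on the right (0.770).

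Contacts were then counted in the neighbourhood of each gene, which is the gene with 100 kb on each side. Of 20143 protein-coding genes that passed the contact minimum, out of 20780, 603 (2.99%) were called higher in PATZ1 KO MNs and 807 (4.01%) lower. The median over all genes was 0.00040 on the log2 scale, and the lowest and highest twentieth of genes began at -0.30 and 0.28. After the GC fit, 676 were higher and 724 lower, and WT had the same sign in 671 and 713 of them. Over all 20143 genes the fitted signs were the same in 15453.

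The neighbourhoods of most pluripotency genes had log2 ratios below 0 in PATZ1 KO, few of them past the limit. Of 24 genes, 3 lay above 0, beside 10095 of all 20143 genes, and 4 were called lower, against 4.01% of all genes, with none called higher. After the GC fit 3 were called lower. The list's median was -0.20, and it lay between -0.13 and -0.23 under every other setting run. In WT the median was 0.032 as measured, with 13 of 24 genes above 0, 2 called higher and 2 lower, beside 14158, 6045 and 1740 of all 20143 genes and a median of 0.17 over them. After the GC fit the median was -0.18 in PATZ1 KO and -0.20 in WT, and the sign was the same in both genotypes for 23 of the 24 genes.

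Dppa3, a maternal factor that guards DNA methylation (chr6:122626410-122630272), was the lowest of the list. Its neighbourhood held 4105 contacts in PATZ1 KO ESCs against 2353 in PATZ1 KO MNs, a log2 ratio of -0.39 (-0.46 to -0.31), and 4968 and 2590 in WT, a ratio of -0.36. Nanog, a core factor of the pluripotent state less than 100 kb from it, shares part of its neighbourhood, with 4770 and 2937 contacts in PATZ1 KO and 5874 and 2994 in WT. Its log2 ratio was -0.28 in PATZ1 KO and -0.39 in WT, so that the lower level in MNs was seen in both genotypes.

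Tfcp2l1, a factor of naive pluripotency, went from 4582 to 2610 contacts in PATZ1 KO, a log2 ratio of -0.39. In WT it went from 4800 to 3207, a ratio of 0.00 as measured and of -0.28 after the GC fit, where PATZ1 KO had -0.37. Utf1, a chromatin factor of ESCs, went from 1782 to 1027 contacts in PATZ1 KO, a ratio of -0.38, and from 2022 to 1555 in WT, a ratio of 0.20 as measured and -0.21 after the fit. For both genes the sign in WT thus rested on the GC fit. Lin28a, which blocks the maturation of let-7, Tet1, which oxidizes methylated cytosine, and Pou5f1, the gene of OCT4, were the highest of the list, with log2 ratios of 0.18, 0.15 and 0.05 in PATZ1 KO.

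Neighbourhoods of MN identity genes did not move together. Of 23 genes, 11 lay above 0 in PATZ1 KO, none was called higher and 1 was called lower, with a median of -0.022. Isl2, a LIM factor of postmitotic MNs, was the highest, with 1789 contacts in PATZ1 KO ESCs against 1608 in PATZ1 KO MNs, a log2 ratio of 0.26 (0.16 to 0.36), against 0.17 in WT. Lhx3, the partner of Isl1 in MN specification, was at 0.18 and Slc18a3, the vesicular acetylcholine transporter, at 0.16. Ebf3, a helix-loop-helix factor of neuronal differentiation, was the lowest at -0.36, from 4645 to 2712 contacts. Onecut1 was at -0.26 and Foxp1, a marker of limb-level motor columns, at -0.14. In WT these 3 were at 0.06, 0.04 and 0.17 as measured and at -0.25, -0.12 and 0.03 after the GC fit. The WT list had a median of 0.21 as measured, with 21 of 23 genes above 0 and 7 called higher, beside 14158 and 6045 of all 20143 genes with a median of 0.17, and it had 0.031 after the fit.

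The patterning and signalling genes of the neural tube were spread about 0 as well. Of 24 neural tube genes, 1 was called higher and 1 lower in PATZ1 KO, with a median of -0.054. Pbx3, a cofactor of Hox proteins, held 5539 contacts in PATZ1 KO ESCs against 5518 in PATZ1 KO MNs, a log2 ratio of 0.42 (0.36 to 0.47), and 6743 and 5568 in WT, a ratio of 0.30. Meis2, another cofactor of Hox proteins, went from 8708 to 5101 contacts in PATZ1 KO, a ratio of -0.35 (-0.40 to -0.30), and from 9354 to 5235 in WT, a ratio of -0.26. These cofactors thus lay at opposite ends of the list in PATZ1 KO, and each had the same sign in WT. Sox1, a neural progenitor factor, was at 0.18 and Ptch1, the receptor of Hedgehog, at 0.17, and Irx3 and Gli2 were at -0.24 and -0.23. In WT, Irx3 and Gli2 were at 0.36 and 0.13 as measured, opposite in sign to PATZ1 KO, and at 0.0039 and -0.27 after the GC fit.

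Among the 16 retinoic acid genes, none was called either way. The median of 0.016 turned to -0.015 with flanks of 50 kb and to -0.024 with scaling to the total alone. Crabp2, which carries retinoic acid to the nucleus, was at 0.27, Aldh1a1, which makes it, at 0.17, and the receptor gene Rarb at 0.09. Cdx1 was at -0.27, Dhrs3, which reduces retinal, at -0.16, and Stra6, the receptor of the retinol carrier, at -0.04.

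Few neuronal genes were called in PATZ1 KO. Of 25 pan-neuronal genes, 1 was called higher and none lower, with a median of 0.010 that turned to -0.048 with flanks of 50 kb. Prph, the gene of the intermediate filament peripherin, was the highest at 0.33 in PATZ1 KO and 0.63 in WT. Dpysl3, a growth cone protein, was at 0.26 and the adhesion gene Nrcam at 0.22. The neighbours Nefl and Nefm, which encode neurofilaments and share most of their neighbourhood, were at -0.27 and -0.25, and Syt1, the calcium sensor of synaptic release, at -0.25.

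None of the 30 long neuronal genes was called in PATZ1 KO, and their median was 0.025, whereas 11 of them were called lower in WT, beside 1740 of all 20143 genes, with a median of -0.25. After the GC fit no gene of the list was called in either genotype, and the medians were -0.0084 in PATZ1 KO and 0.12 in WT. Fitted values lay above 0 for 13 of 30 genes in PATZ1 KO and 27 of 30 in WT, beside 10228 and 10540 of all 20143 genes, and this difference was not tested. Rbfox1, a splicing factor, was at 0.26 in PATZ1 KO and 0.25 in WT. Csmd3 and Lrp1b were at 0.19 and 0.14 in PATZ1 KO but -0.44 and -0.40 in WT as measured, and at 0.09 and 0.06 against 0.21 and 0.15 after the fit. Among the lowest, Auts2 was at -0.21 and Macrod2 at -0.13.

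Genes of the cohesin machinery included several of the higher neighbourhoods. Of 22 measured genes of chromatin architecture, 5 were called higher in PATZ1 KO MNs, against 2.99% of all genes, and none lower, with a median of 0.051. In WT 8 of the 22 were called higher as measured, beside 6045 of all 20143 genes. After the GC fit 5 were called higher in PATZ1 KO, beside 676 of all genes, and 1 in WT, beside 180. Nipbl, which loads cohesin (chr15:8290617-8444463), went from 4886 contacts in PATZ1 KO ESCs to 5440 in PATZ1 KO MNs, a log2 ratio of 0.58 (0.52 to 0.63), and from 6342 to 4662 in WT, a ratio of 0.14 as measured and 0.34 after the fit, where PATZ1 KO had 0.57. Pds5a, a cohesin regulator, went from 3600 to 3763 in PATZ1 KO, a ratio of 0.48, and from 4715 to 3696 in WT, a ratio of 0.23.

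The cohesin subunit gene Stag1 went from 10580 to 10608 contacts in PATZ1 KO, a log2 ratio of 0.41, and from 14431 to 9519 in WT, a ratio of -0.04 as measured and 0.19 after the fit. Mau2, the partner of Nipbl, and Esco1, which acetylates cohesin, were both at 0.37 in PATZ1 KO. Yy1 was the lowest at -0.18, with the cohesin genes Rad21 at -0.17 and Smc3 at -0.16. These are contacts around the genes and no measure of their expression.

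The other cell types that such cultures could hold gave lists near 0. None of the 12 measured glial genes was called, with a median of -0.0036. Fabp7, a marker of radial glia, was at 0.30, Slc1a3 at 0.14 and Aqp4 at 0.12, and Pdgfra, a marker of oligodendrocyte precursors, was at -0.18, Slc1a2 at -0.14 and Aldh1l1 at -0.13. Of 22 mesoderm and endoderm genes, 1 was called lower and none higher, with a median of -0.055. The T-box factor Eomes was at -0.34, Cdx2 at -0.31 and Hand1 at -0.28, and Nkx2-5 was at 0.27, Gata6 at 0.17 and Tbx6 at 0.15. None of 20 housekeeping genes was called, and their median of 0.045 turned to -0.025 with flanks of 50 kb. Rpl13a was at 0.32, Tbp at 0.25 and Vcp at 0.22, and Chmp2a and Gapdh were at -0.30 and -0.18.

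**Figure D3:**
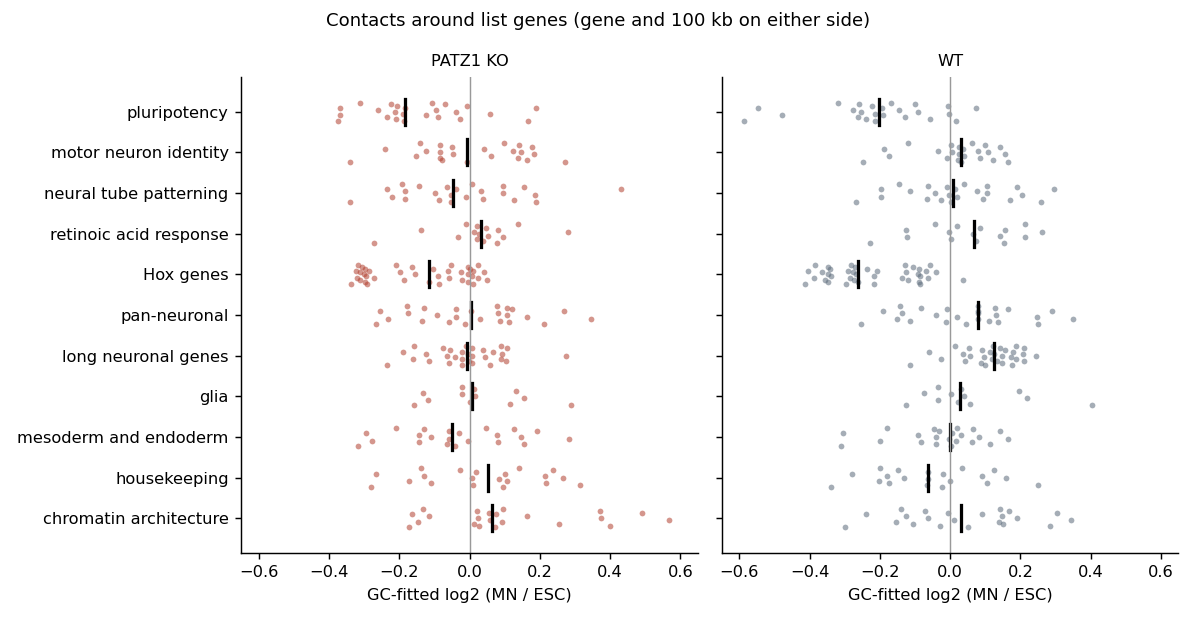
Log2 ratio of MN over ESC contacts within 100 kb of each gene after the GC fit, by gene list. PATZ1 KO is on the left and WT on the right, each point 1 gene. The pluripotency genes lie mostly below 0, with medians of -0.18 in PATZ1 KO and -0.20 in WT. The medians of the Hox genes were -0.11 and -0.26. Of 30 long neuronal genes, 13 lay above 0 in PATZ1 KO and 27 in WT, and of 22 chromatin architecture genes 17 and 12. The remaining lists had values on both sides of 0.

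Insulation over the middle of the HoxA cluster and at Hoxd9 and Hoxd10 was deeper in MNs than in ESCs, in PATZ1 KO cells as in WT. It was read with the insulation score, the log2 of the contacts that cross a bin, in a square of 200 kb, over the chromosome mean. A low score marks a boundary. The score at the start of 34 of 39 Hox genes was lower in PATZ1 KO MNs than in PATZ1 KO ESCs, and at 27 of 39 it was lower in WT MNs than in WT ESCs. Of the 19742 gene starts with a score, 8113 and 6629 were lower. The median difference was -0.27 in PATZ1 KO and -0.21 in WT, against 0.055 and 0.14 over all these starts. After the median difference of bins of like GC content was subtracted, 35 and 36 of the 39 were lower, beside 8599 and 10698 of all starts. The medians at Hox genes were then -0.32 in PATZ1 KO and -0.39 in WT. Hox genes sit in 4 clusters and several share a bin, so they are no independent points.

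In the HoxA cluster the lower scores lay over its middle. At Hoxa7 the score was -1.34 in PATZ1 KO ESCs against -2.57 in PATZ1 KO MNs, and -1.55 and -2.38 in WT. At Hoxa9, which patterns the thoracic level, it was -1.52 and -2.61 in PATZ1 KO, and -1.78 and -2.43 in WT. In both genotypes the scores were thus deeper in MNs over the middle HoxA genes.

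In the HoxD cluster the score at Hoxd9 was -1.92 in PATZ1 KO ESCs against -2.78 in PATZ1 KO MNs, and -2.12 and -2.75 in WT. At Hoxd10 it was -2.23 and -3.07 in PATZ1 KO, and -2.37 and -3.00 in WT. In ESCs the scores of these 4 genes were less negative in PATZ1 KO than in WT, and in MNs they were more negative. The differences between genotypes were not tested. The HoxC cluster showed less insulation, with 0.14 and -0.24 at Hoxc9 in PATZ1 KO and 0.42 and 0.32 in WT.

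The neighbourhood contacts of Hox genes depended on the window. With flanks of 100 kb, 5 of the 39 genes were called lower in PATZ1 KO MNs and none higher, against 4.01% of all genes lower, with a median of -0.12. After the GC fit 2 were called lower, and neighbourhoods within a cluster overlap. The median was -0.21 with flanks of 50 kb and turned to 0.048 with flanks of 200 kb, so no direction is given for it. Hoxd8 was the lowest at -0.36, followed by Hoxa7 at -0.34 and Hoxa6 at -0.33, and Hoxb1, Hoxd1 and Hoxb13 were the highest at 0.04, 0.02 and 0.01.

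The score was lower in MNs than in ESCs at the starts of most pluripotency genes, in both genotypes. The median difference at their starts was -0.21 in PATZ1 KO, with 17 of 24 genes lower, and -0.051 in WT, with 15 lower, beside 8113 and 6629 of the 19742 gene starts. After the GC classes the median was -0.23 in PATZ1 KO and -0.26 in WT, with 18 and 20 of 24 lower, beside 8599 and 10698 of the 19742 starts. At Eomes, a gene of early mesoderm, the score was -0.08 in PATZ1 KO ESCs against -0.84 in PATZ1 KO MNs, and -0.16 and -0.75 in WT. At Rad21 it was 0.50 and -0.17 in PATZ1 KO and 0.63 and -0.15 in WT. Housekeeping genes went the other way, with a median difference of 0.24 in PATZ1 KO and 0.27 in WT. After the GC classes it was 0.23 in PATZ1 KO and turned to -0.059 in WT, where 11 of 20 genes were lower. An example as measured is Rpl13a, where the score was -1.24 and -0.53 in PATZ1 KO and -1.06 and -0.19 in WT.

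**Figure D4:**
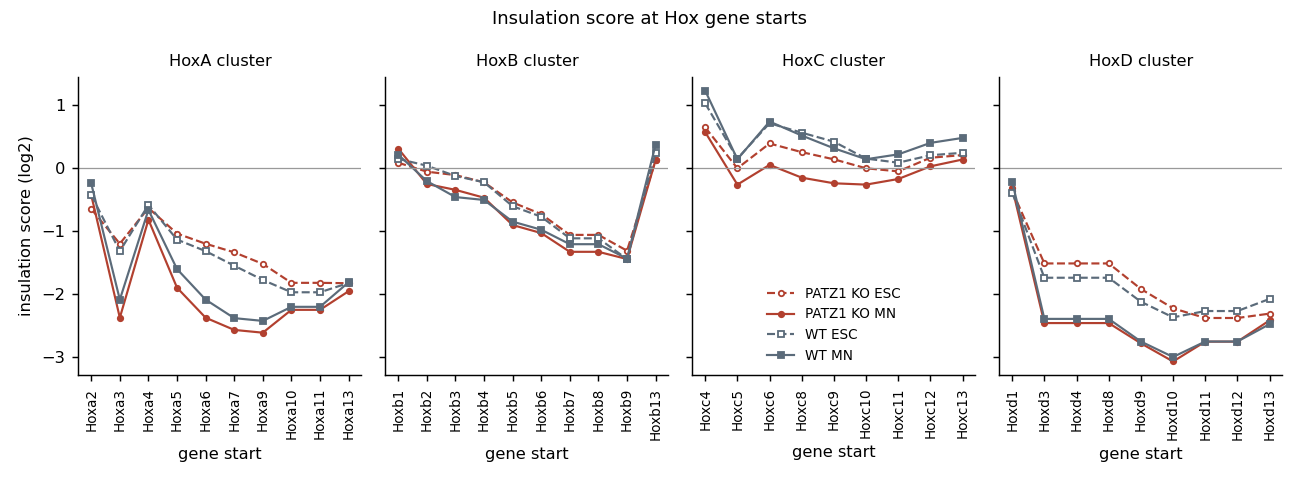
Insulation score (log2, vertical axis) at the starts of Hox genes, ordered by paralog number in each cluster, for ESCs (dashed, open) and MNs (solid, filled) of both genotypes. At Hoxa7, Hoxa9, Hoxd9 and Hoxd10 the MN scores of both genotypes lie below the ESC scores. They reach -2.57 at Hoxa7 and -3.07 at Hoxd10 in PATZ1 KO MNs. At Hoxa2 and Hoxd1 the score of PATZ1 KO MNs was not below that of PATZ1 KO ESCs.

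Boundaries were called genome-wide as local minima of the score under -0.3. PATZ1 KO ESCs had 4679 and PATZ1 KO MNs 4291, against 4570 and 4615 in WT, over 289541 scored bins. Of the PATZ1 KO boundaries, 3400 were found in both states within 24 kb. A boundary of 1 state was called gained or lost when the score there differed by at least 0.3, which gave 174 gained in PATZ1 KO MNs and 435 lost. The rule for scoring bins that was used first gave 612 and 497, so no order is given. Another 717 of MNs and 844 of ESCs had a smaller difference. Shared boundaries were deep, with a median score of -1.02 in both PATZ1 KO states, whereas gained and lost ones were weaker.

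At gained boundaries the median score was -0.20 in PATZ1 KO ESCs against -0.64 in PATZ1 KO MNs. The WT scores were not used to call these sites, although a bin was scored only where WT also had contacts, and in WT the medians were -0.30 and -0.58. The WT difference was negative at 153 of 174 sites (87.9%), and at 171 (98.3%, 95% interval 95.04% to 99.6%) after the median difference of bins of like GC content was subtracted. At lost boundaries the median score was -0.62 in PATZ1 KO ESCs against -0.20 in PATZ1 KO MNs, and -0.51 and -0.33 in WT. The WT difference was positive at 343 of 435 sites (78.9%), and at 415 (95.4%, 93.0% to 97.2%) after the GC classes. Most boundaries gained or lost in PATZ1 KO cells thus had the same direction in WT, with a smaller median. For comparison, after the GC classes the WT difference was positive at 50.1% of shared boundaries. It was positive at 42.3% of the 717 of MNs and 60.5% of the 844 of ESCs with a smaller difference.

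Read the other way, WT gained 599 boundaries and lost 489. At the gained ones the median difference was -0.42 in WT and -0.030 in PATZ1 KO, and -0.15 and -0.097 after the GC classes, where 447 (74.6%, 70.9% to 78.1%) had the same sign in PATZ1 KO. At the lost ones it was 0.45 in WT and 0.27 in PATZ1 KO, and 0.24 and 0.25 after the GC classes, where 434 (88.8%) had the same sign. As measured, the median difference was smaller in the genotype that did not choose, and after the GC classes this held for the gained sites of WT but not for its lost sites. The GC trend of WT moved with these values, and its part in them was not tested.

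The CTCF core motif was found in the 24 kb of the boundary bin and the bin on either side at 24.4% of shared boundaries, 17.2% of gained ones (11.9% to 23.7%), 14.0% of lost ones (10.9% to 17.6%) and 8.19% of all scored bins. A protein-coding gene started there at 42.1% of shared, 32.2% of gained and 35.4% of lost boundaries and at 16.3% of all bins. A match of the motif is no measure of binding.

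The gained boundary with the largest difference lay at chr5:145296001-145304000 with no gene start, with scores of -0.97 in PATZ1 KO ESCs against -2.16 in PATZ1 KO MNs, and -1.18 and -2.03 in WT. The next lay at chr6:97008001-97016000, also without a gene start, with -0.34 and -1.20 in PATZ1 KO and -0.37 and -0.97 in WT. The next, chr6:131240001-131248000 at Klra2, a receptor gene of natural killer cells, had -0.37 and -1.22 in PATZ1 KO and -0.48 and -1.31 in WT. All 3 were also deeper in WT MNs than in WT ESCs.

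The lost boundaries with the largest differences lay at gene starts. At Hat1, a histone acetyltransferase (chr2:71384001-71392000), the score was -0.80 in PATZ1 KO ESCs against 0.29 in PATZ1 KO MNs, and -0.45 and 0.26 in WT. At Kpnb1, an importin (chr11:97192001-97200000), it was -1.19 and -0.20 in PATZ1 KO and -0.07 and 0.56 in WT. At Luc7l2, a splicing factor (chr6:38552001-38560000), it was -0.95 and 0.03 in PATZ1 KO and -0.61 and -0.01 in WT. None of these 6 named boundaries had a CTCF core motif in these 24 kb.

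Of the genes of the lists, none of 257 started at a gained boundary and 4 (1.56%) started at a lost one, beside 62 (0.298%) and 220 (1.06%) of all 20780 genes. At Isl2 the score was -0.82 in PATZ1 KO ESCs against -0.42 in PATZ1 KO MNs, and -0.64 and -0.35 in WT. At Mau2 it was -0.56 and 0.17 in PATZ1 KO and -0.38 and 0.53 in WT. At Stra8, a meiotic gene that retinoic acid turns on, it was -0.57 and -0.13 in PATZ1 KO and -0.47 and -0.15 in WT. At Esco2, which acetylates cohesin in S phase, it was -0.40 and -0.08 in PATZ1 KO and -0.31 and 0.16 in WT. All 4 were weaker in MNs of both genotypes.

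**Figure D5:**
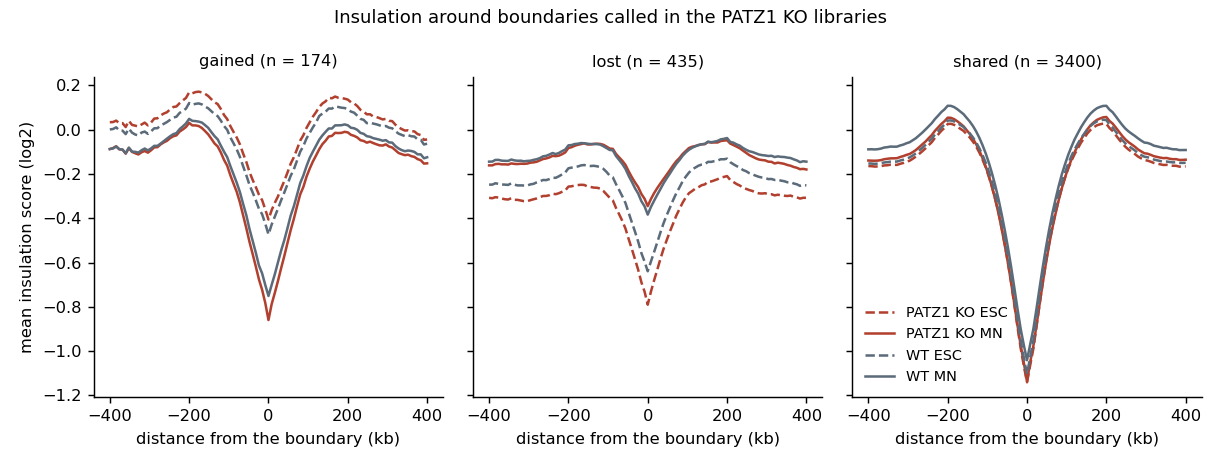
Mean insulation score (log2, vertical axis) by distance from the boundary (kb, horizontal axis) at boundaries gained, lost and shared between PATZ1 KO ESCs and PATZ1 KO MNs, in all 4 libraries. The dip at gained sites is deeper in MNs and that at lost sites deeper in ESCs in both genotypes, with median differences of -0.43 and 0.40 in PATZ1 KO, whose scores called the sites, and -0.27 and 0.28 in WT, whose scores were not used to call them.

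Loop-like pairs were bin pairs 104 to 2000 kb apart with at least 20 contacts that stood at least 2 times over both the ring of pairs around them and the mean at their distance. In PATZ1 KO, 196 were called in MNs alone and 616 in ESCs alone. The count of ESCs rested on their greater depth: with PATZ1 KO ESCs thinned to the total of PATZ1 KO MNs, 138 were called in ESCs alone and 246 in MNs alone, so no order is given. The pairs of MNs alone spanned a median of 348 kb and those of ESCs alone 152 kb. Chromosomes 6 and 8, the deeply covered ones, held 28.6% of the pairs of MNs alone and 44.2% of those of ESCs alone, with 11.3% of all bins.

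The enrichment over the ring had the same direction in WT at 129 of 196 pairs of MNs alone (65.8%, 58.7% to 72.4%), with a median log2 difference of 1.22 in PATZ1 KO and 0.35 in WT. It had the same direction at 396 of 616 pairs of ESCs alone (64.3%, 60.4% to 68.1%), with medians of -1.16 and -0.30. For comparison, WT enrichment was higher in MNs than in ESCs at 45.6% of MN pairs called in both states, and lower at 56.0% of such ESC pairs. Among pairs called in 1 state with a smaller difference, it was higher at 72.4% of 29 MN pairs and lower at 59.9% of 357 ESC pairs. Among 143 pairs that WT called in MNs alone, 114 (79.7%) were also higher in PATZ1 KO MNs, with medians of 1.09 in WT and 0.55 in PATZ1 KO. Among 951 that WT called in ESCs alone, 613 (64.5%) were also lower in PATZ1 KO MNs, with medians of -1.15 and -0.27. Of the pairs that WT called in both states, 65.2% of 279 MN pairs were higher in PATZ1 KO MNs than in PATZ1 KO ESCs. Of 288 such ESC pairs, 39.9% were lower. A count of 20 contacts carries a 95% Poisson interval of 12.2 to 30.9, so single pairs near the minimum can pass it by counting error. CTCF core motifs that point towards each other were found at the ends of 10.7% of pairs of MNs alone and 6.01% of those of ESCs alone, against 0.243% of all pairs at these distances.

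Sox2, a factor of both ESCs and neural progenitors, was at a loop-like pair in each state, with a different partner. The pair chr3:34648001-34752001, which joins its start to a region 104 kb downstream, held 22 contacts in PATZ1 KO ESCs (95% interval 13.8 to 33.3) against 1 in PATZ1 KO MNs (0.025 to 5.57), and 37 and 3 in WT. The pair chr3:34648001-35480001, 832 kb apart, held 4 in PATZ1 KO ESCs (1.09 to 10.2) against 20 in PATZ1 KO MNs (12.2 to 30.9), and 3 and 9 in WT. The shorter pair was called in ESCs alone and the longer one in MNs alone, and WT had the same direction in both.

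The CTCF motifs at the ends of pairs of MNs alone are shown because they point towards each other, the left one on the plus and the right one on the minus strand. Each is read 5′ to 3′ on its own strand from mm10, with the core motif in capitals and 8 bases on either side, which the positions include. Motifs were sought in the end bin and the bin on either side of it. The left Sox2 motif lies in the bin before the end bin. The Sox2 pair has its motifs at chr3:34647879-34647907 and chr3:35482509-35482537, the Pole4 pair at chr6:81976139-81976167 and chr6:82702893-82702921, and the Anxa10 pair at chr8:62080377-62080405 and chr8:63877625-63877653.
Sox2 left: caagtccaCCAGCAGGGGGCGcagcagcc
Sox2 right: cgtacaggCCACTAGGTGGCActatttac
Pole4 left: agagatgaCCAGCAGGTGGCAccacccac
Pole4 right: cagagtgaCCACCAGGTGGCGcccgcccc
Anxa10 left: tggaattgCCACTAGATGGCGatatatgt
Anxa10 right: atttatggCCACCAGGTGGCAgcatcact

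The Pole4 and Anxa10 pairs were among the 3 of MNs alone with the largest difference. The pair chr6:81976001-82696001, with Pole4, a small subunit of DNA polymerase epsilon, at its right end, held 1 contact in PATZ1 KO ESCs against 21 in PATZ1 KO MNs, and 1 and 13 in WT. The pair chr8:62080001-63872001, with the annexin gene Anxa10 at its left end, held 1 and 22 in PATZ1 KO and 2 and 14 in WT. The pair chr8:36528001-37056001, with no gene start at either end, held 2 and 20 in PATZ1 KO and 7 and 16 in WT. All 3 were higher in MNs of both genotypes.

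The 3 pairs of ESCs alone with the largest difference were all on chromosome 6. The pair chr6:51864001-52032001, with Skap2, a neighbour of the HoxA cluster, at its left end, held 23 contacts in PATZ1 KO ESCs against 1 in PATZ1 KO MNs, and 15 and 5 in WT. The pair chr6:134432001-134640001, between Bcl2l14 and Borcs5, held 21 and 1 in PATZ1 KO and 12 and 8 in WT. The pair chr6:102840001-102944001 held 20 and 1 in PATZ1 KO and 8 and 2 in WT. Over all MN pairs, the median enrichment over the ring in PATZ1 KO MNs was 5.45 for those called in both states. It was 6.28 for pairs of MNs alone, which were chosen by that value. In WT MNs, whose enrichment was not used for the calls, the medians were 3.92 and 3.67, so no order is given. The pairs called in both states that were most enriched lay at chr1:85272001-85592001 near Sp110, with 106 contacts in PATZ1 KO ESCs against 54 in PATZ1 KO MNs, and chr10:57440001-58208001, with 35 and 36. The pair chr1:173272001-174328001 near Mptx1 held 51 and 34. In PATZ1 KO MNs these 3 pairs stood 193, 63.7 and 50.9 times over the ring, beside the median of 5.45. In WT they held 92 and 81, 48 and 23, and 58 and 25 contacts in ESCs and MNs. The log2 difference in enrichment at the first 2 was -0.54 and 0.40 in PATZ1 KO but 0.37 and -0.61 in WT. None had CTCF core motifs at both ends, and whether reads map uniquely there was not tested.

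Genes of the lists lay at 10 pairs of MNs alone and 15 of ESCs alone, and the direction in WT was the same for 6 and 10 of them, shares near those of all such pairs. Skap2 and Hoxa2, a hindbrain patterning gene, were joined by the pair chr6:52000001-52160001, with 7 contacts in PATZ1 KO ESCs against 39 in PATZ1 KO MNs, and 7 and 33 in WT. Hoxb2 and Skap1 were joined by chr11:96352001-96552001, with 5 and 21 in PATZ1 KO and 3 and 12 in WT. Nkx6-1, which specifies MN progenitors, lay at chr5:100912001-101664001, with 7 and 22 in PATZ1 KO and 5 and 15 in WT. These 3 pairs were higher in MNs of both genotypes.

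A pair between chr6:51176001 and the bin of Hoxa9 and Hoxa10 at chr6:52224001 held 2 contacts in PATZ1 KO ESCs against 23 in PATZ1 KO MNs, and 8 and 10 in WT. Its log2 difference in enrichment was 2.53 in PATZ1 KO and -0.26 in WT, and the difference between them was not tested.

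Among pairs of ESCs alone, the one within Meis2 (chr2:115856001-116064001) held 54 contacts in PATZ1 KO ESCs against 12 in PATZ1 KO MNs, and 42 and 9 in WT. The pair at Eomes (chr9:118368001-118480001) held 21 and 1 in PATZ1 KO and 12 and 4 in WT. The pair from Hoxc5 and Hoxc6 (chr15:103008001-103128001) held 24 and 6 in PATZ1 KO and 21 and 7 in WT. All 3 were lower in MNs of both genotypes.

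Compartments, the split of a chromosome into an active, gene-rich A part and a closed B part, could be read poorly from joined pairs, which hold few long contacts. On the 6 chromosomes where both PATZ1 KO libraries reached a correlation of 0.3 between compartment and gene density, 4 of 2016 units of 32 bins switched (0.198%), and none of the 4 switched the same way in WT. With the units nearest 0 kept, 57 switched, 13 of them the same way in WT. With all pairs of each list, 16 chromosomes reached it and 1010 of 6297 units switched (16.04%), 624 towards B and 386 towards A. Of these 1010, 791 switched the same way in WT, whose lists are tied to those of PATZ1 KO by the pairs seen in both. With these lists 4 of 20 pluripotency genes went to B, namely Zfp42, Fgf4, Utf1 and Rif1, and none to A, beside the 624 and 386 of 6297 units. No unit of the 28 Hox genes or 16 housekeeping genes that could be read switched. Hox genes of a cluster share units, so the 28 are no independent points.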

How the data were processed

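The submitters' processing notes name the build mm10. The authors ran HiCcompare on WT against PATZ1 KO in each state, and the interaction frequencies they deposited are raw counts of contacts per pair of 8 kb bins, listed only where both libraries had at least 1. The columns carry numbers and no sample names, and number 1 was read as WT and number 2 as PATZ1 KO, after the order of the genotypes in the name of the comparison. The authors' adjusted frequencies, log2 ratios and p-values compare genotypes and were not used.

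Lists were joined by position, and ESC counts were scaled to MN totals at each distance of 16 kb or more (Python 3.11.15, numpy 2.4.6, scipy 1.17.1, pandas 2.3.3). Windows of 64 bins needed 500 contacts and gene neighbourhoods 200. Intervals of ratios and shares are exact binomial 95% intervals. Genes came from GENCODE vM21 on GRCm38. The scripts were tested on simulated data. Thresholds of size took the place of tests, since there were no replicates.

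The comparison and gene lists were chosen with earlier results of these data known. Named were, of those reported, the 3 highest and 3 lowest genes of each list, the 3 windows of largest ratio each way, and the 3 boundaries and loop-like pairs of largest difference of each kind. Mau2 and Esco1 were named beyond this rule, as further genes called higher. Nanog, single scores at Hox genes, Eomes, Rad21 and Rpl13a, and list genes at loop-like pairs were picked after their values were seen, as were the GC fit, the sites called in WT, compartments of each list, motif shares and scores at gene starts. The rule for which bins get an insulation score was replaced after its counts were seen. It now asks that 80% of the bins along the stretch the square spans have contacts within the bin itself. It also asks for at least 100 contacts in the square in every library, and, for a boundary, 5 scored bins within 80 kb on each side. The share of the square's pairs that is listed no longer enters. Znf143 was not matched and not measured. Results for some list genes are not reported here.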

Additional observations from a re-analysis of the deposited data

Results flagged for a closer look

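The relation of window ratios to GC content differed between the genotypes. The rank correlation over windows of 64 bins was -0.224 in PATZ1 KO and 0.896 in WT, and with 1 library per group the difference was not tested. The housekeeping list had a median of 0.051 in PATZ1 KO and -0.063 in WT after the GC fit, of opposite sign, and this difference was not tested either.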

How the results depend on the processing

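Each state's own list in place of joined pairs gave log2 ratios of shares in PATZ1 KO of -0.049 at 40 to 104 kb, -0.24 at 104 to 200 kb, 0.14 at 504 to 1000 kb, 0.94 at 1000 to 2000 kb and 1.41 at 2000 to 5000 kb, and turned the sign at 16 to 40 kb (0.023), 200 to 504 kb (-0.26) and beyond 10000 kb (-0.48), where pairs not seen in both states enter. It gave 173 windows higher and 243 lower, 761 boundaries gained and 713 lost, and 1010 compartment bins switched. Windows of 32 bins gave 329 higher and 390 lower, and those of 128 bins 28 and 34. Scaling to the total alone gave 54 and 242, with 377 gene neighbourhoods higher and 1185 lower. At a log2 limit of 0.20, 571 windows were higher and 507 lower, with 2225 and 2655 neighbourhoods, and at 0.58 1 and 2 windows, with 27 and 28 neighbourhoods. Boundaries gained and lost were 348 and 721 with a square of 120 kb, 84 and 252 with 400 kb, 298 and 723 at a score difference of 0.2, and 46 and 106 at 0.5. The scoring rule used first, 50% of the square's pairs listed with minima at gap edges kept, gave 612 gained and 497 lost, and 109 and 257 with such edges left out; the rule reported here was set after these counts were seen, and gained and lost sites stand in the opposite order under the first. Loop-like pairs of MNs alone and ESCs alone numbered 7314 and 34633 at a minimum of 10 contacts, 1 and 17 at 40, and thinning left 138 of ESCs alone. Compartment switches were 57 with all bins kept, 1 with units of 64 bins and 1 with the first eigenvector. Where no construction is named, the cause was not tested. Counts of windows, neighbourhoods, boundaries and loop-like pairs thus depend on the threshold, and depth also limits the loop-like pairs. No paired analysis was possible because each group has 1 library.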

Other observations

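With all pairs of each list, further list genes lay in compartment units of 32 bins that switched in PATZ1 KO. From B to A went Dbx2, of neural progenitors, Meis1, a cofactor of Hox proteins, the neuronal genes Map2 and Gap43, the retinoic acid genes Rarb and Nrip1, Robo2, Nfia, the mesoderm gene T and Smc3. From A to B went the neural tube genes Dbx1, Gli3 and Msx1, the MN list genes Ebf3 and Nkx6-2, Stmn2, Aldh1a3, Fabp7, Rad21 and Patz1 itself. Of the 24 neural tube genes, all in readable units, 4 went to A and 3 to B, and of the 18 readable MN identity genes none went to A and 2 to B. Over all 6297 units, 386 went to A and 624 to B.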
